A study of Mus musculus with 5 samples.

Results

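The genes examined here set the level of polyamines in the cell, and the translation of several of them is controlled by a ribosomal frameshift or by an upstream open reading frame (uORF). Members were chosen by symbol: Odc1, Oaz1, Oaz2, Azin1, Amd1, Srm, Sms and Sat1, which are 8 of 21849 protein-coding genes with a counted transcript, and 22 protein-coding transcripts of theirs were among the 135276 transcripts counted. For each gene the protein-coding transcript with the highest mean level is given, and all 8 passed the filter of 1 CPM (counts scaled to library size) in at least 1 library. The cells were 46C mouse embryonic stem cells (mESCs), a single line kept in medium with LIF and serum, and all libraries were prepared after cycloheximide, which blocks elongating ribosomes. In standard RIBO-seq (3 libraries) ribosomes were pelleted through a sucrose cushion and the RNA fragments they protect from RNase I were sequenced. In AHARIBO RIBO-seq (2 libraries) ribosomes were instead captured on beads through nascent chains carrying L-azidohomoalanine (AHA), a methionine analogue that was linked to biotin. The workflow of the study places methionine depletion before AHA, and sBlock, an anisomycin-based reagent, after it. Whether cells for the standard libraries had these steps is not stated. The labels name every library untreated, and the dose of AHA for ribosome profiling is not given in the sources used here. The study calls replicates of each method independent, but neither it nor the labels say that they came from separate cultures, so p-values measure only the spread between these libraries, which may be technical.

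Polyamines (putrescine, spermidine and spermine) are small cations that bind RNA and are needed for growth, and embryonic stem cells are known for high ornithine decarboxylase activity. ODC, encoded by Odc1, makes putrescine from ornithine. Antizymes, encoded by Oaz1 and Oaz2, bind ODC and send it to the proteasome, and they are made only when ribosomes shift into the +1 frame at a stop codon, an event that polyamines favour. Antizyme inhibitor, encoded by Azin1, resembles ODC without its activity and binds antizyme in its place. AMD1 supplies the aminopropyl groups that SRM and SMS add to make spermidine and spermine, and SAT1 acetylates both products for breakdown or export.

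The control elements below were read from the GRCm38.p6 genome and are shown because the results refer back to them. Each frameshift site is given with the stop codon of the start-codon frame in capitals, for Oaz1 at chr10:80828280-80828309 (plus strand, in the second exon) and for Oaz2 at chr9:65686257-65686286 (plus strand).
Oaz1: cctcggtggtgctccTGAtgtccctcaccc
Oaz2: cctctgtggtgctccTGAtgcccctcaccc
The sites matched at 28 of 30 bases. Before the stop codon Oaz1 had 68 codons, of which 2 were for methionine, and 159 codons followed in the +1 frame with 1 more methionine. Oaz2 had 32 codons before the stop and 157 after it, with 1 and 3 methionines. Gencode writes the shift as an intron of 1 nt in Oaz1-202, Oaz1-203, Oaz1-207, Oaz2-204 and Oaz2-206 and of 4 nt in Oaz1-201 and Oaz2-201, and the other coding transcripts of both genes have no such intron. The uORF of Amd1 lies near the 5′ end of the leader, at nt 12 to 32 of Amd1-201 (chr10:40302155-40302175, minus strand), with its start and stop codons in capitals.
Amd1: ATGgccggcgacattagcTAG
It has 6 codons before its stop. The leader of Azin1 is known for a long reading frame without an AUG start, in which codons for proline, proline and tryptophan stall ribosomes when polyamines are high. In Azin1-203 the motif CCNCCNTGG (searched on the transcript strand, any frame, in capitals here) had 2 matches in the leader, of which the one in the longer open frame is shown. It lies at nt 256 to 264 (chr15:38518988-38519017, minus strand, printed with its flanks).
Azin1: tggcccaggCCGCCTTGGgtatttctgctc
Its frame was open from the 5′ end for 122 codons, to a stop ending at nt 369, and the coding sequence began at nt 748. This motif occurred in the leaders of 3.66% of 11400 genes with a leader, and among the members also in Odc1. ATG triplets preceded the coding sequence 6 times in Azin1, 4 times in Sms, 2 times each in Odc1 and Sat1, 1 time in Amd1 and in none of Oaz1, Oaz2 and Srm. Of the leaders of all genes, 51.5% held at least 1.

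The proteins differ in length and in methionine, the residue that AHA replaces. Read from the coding sequences, ODC has 461 residues and antizyme inhibitor 448, and 50.9% of 446 aligned residues were identical. Antizymes 1 and 2, of 226 and 189 residues as annotated, were identical at 55.1% of 187 aligned residues. Methionines numbered 15 in ODC, 14 in antizyme inhibitor, 11 in AMD1, 10 in SRM, 10 in SMS, 7 in SAT1, 4 in antizyme 2 and 3 in antizyme 1. Per 100 residues this was 4.09 for SAT1, 3.31 for SRM, 2.73 for SMS, 2.12 for antizyme 2 and 1.33 for antizyme 1. AMD1, ODC and antizyme inhibitor had 3.29, 3.25 and 3.125. The median over 11588 genes was 2.13.

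The libraries held 6403651 to 11150527 counts after removal of duplicates, and 3 counts, the least taken as detectable, were worth 0.269 to 0.468 CPM. All 9 stem cell markers were well covered, at mean levels of 71.4 to 247 CPM, while fibroblast markers did not pass 2.93 CPM and mesoderm and endoderm markers did not pass 1.29 CPM. Of the 9, Sox2, Klf4 and Utf1 were called lower and Tfcp2l1 higher in AHARIBO RIBO-seq in the edgeR fit, where 13.5% of 1282 genes with a mean of 50 to 200 CPM were called. None of the 4 calls remained with the replicate block, with summed transcripts, without standard replicate 1 or without AHARIBO replicate 1. The summed stem cell markers were lower in AHARIBO RIBO-seq without overlap, at 1273 to 1386 CPM against 1399 to 1501 CPM, and so were the summed neural markers, led by Tubb3, at 46.5 to 48.9 CPM against 53.1 to 54.1 CPM. In bulk libraries, a difference in cell make-up, in footprints per cell or in ribosome capture cannot be told apart. The cause was not tested. AHARIBO replicate 1 stood farthest from the standard libraries: its counts differed from theirs by a chi-square of 3.19 to 4.64 per degree of freedom, against 2.09 to 2.42 for AHARIBO replicate 2 and 1.22 to 1.75 among standard libraries.

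Most members share coding sequence with pseudogenes, which limits what their counts mean. A read appears to have been counted on every transcript it matched: in 99.3% of 1221 pairs of transcripts of a gene where one lay inside the other, the inner count was not above the outer in any library. Every 30-nt window of the Amd1 coding sequence also occurred in another gene, chiefly in Amd2, which shared 91.6% of the windows of Amd1-201, and in the processed pseudogenes Amd-ps3, Amd-ps4 and Amd-ps1. All coding windows of Sms-201 were found in Sms-ps. For Oaz1 the share of coding windows found elsewhere was 91.0%, all in Oaz1-ps. Odc1 shared 83.1% of its coding windows with 19 pseudogenes, of which Gm7993, Gm9115, Gm17709, Gm9260, Gm7278, Rps7-ps2, Gm15470 and Gm15645 each held over 10% of all its windows. Lower shares were found for Oaz2 (63.8%, mostly in Oaz2-ps), Sat1 (33.3%, in Gm5552) and Srm (18.1%), and Azin1 shared none. Levels of Amd1, Sms, Oaz1 and Odc1 are therefore those of the gene and its copies together. In addition 20.0% of the coding windows of Odc1 occurred in more than 10 transcripts, the number above which STAR discards a read at the default settings the study used, and all 6 sampled transcripts made up only of such windows had no read.

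Footprint density, as CPM per kb of coding sequence over the 5 libraries, was highest for Odc1 and lowest for Oaz2. All reads on the transcript enter this value, those in the leader included. Odc1 averaged 125 CPM per kb (range 118 to 129), which lay above 97.0% of 12374 genes. The antizyme that targets its product came next, with Oaz1 at 98.1 (83.4 to 113), followed by Srm at 92.3 (76.2 to 102). Sat1 stood at 49.4 (47.9 to 50.4), Amd1 at 36.7 (34.0 to 38.4) and Azin1 at 35.2 (30.6 to 36.8). Sms reached 18.7 (18.2 to 19.4) and Oaz2 14.3 (11.7 to 15.7), so that the density of Odc1 was 8.74-fold that of Oaz2. The ranges of Oaz1 and Srm overlapped, as did those of Amd1 and Azin1, although Oaz1 was above Srm in 5 of 5 libraries and Amd1 above Azin1 in 4 of 5. All other neighbours in this order had ranges that did not overlap. With the length of the whole transcript in place of the coding length, Srm stood before Oaz1, and with summed protein-coding transcripts Oaz1 ranked 1, Odc1 2, Oaz2 7 and Sms 8.

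**Figure D1:**
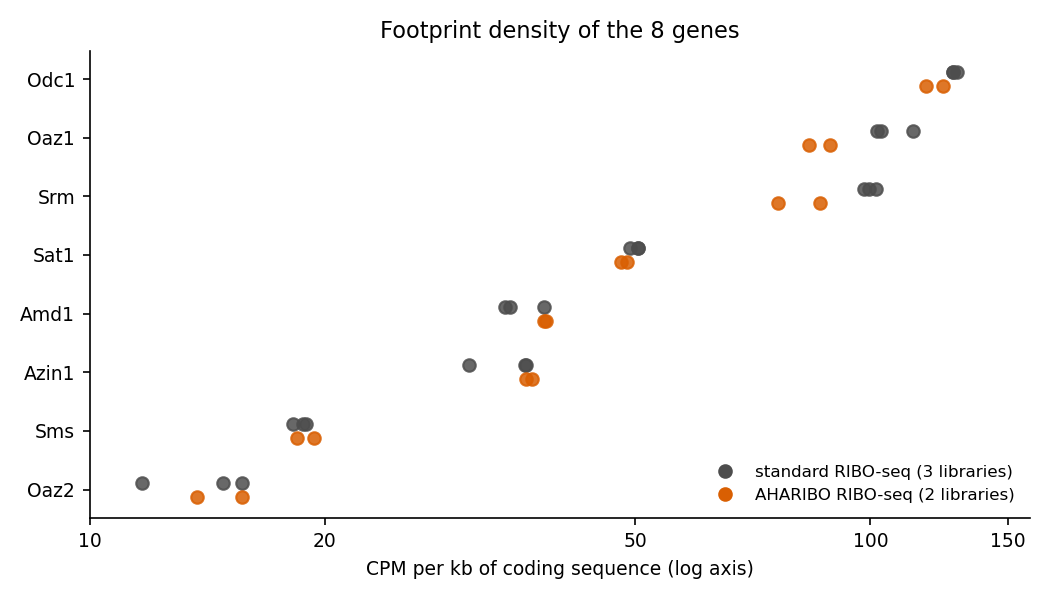
Footprint density (CPM per kb of coding sequence, log axis) of the highest protein-coding transcript of the 8 genes, 1 point per library, in grey for the 3 standard and in orange for the 2 AHARIBO libraries. Densities run from about 129 CPM per kb for Odc1 down to 11.7 for Oaz2, and the orange points of Oaz1 and Srm lie to the left of their grey points.

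AHARIBO RIBO-seq gave fewer footprints on Oaz1, the main antizyme gene, and on Srm, the spermidine synthase gene, each to about 0.81-fold, and the other members were not called. Levels of Oaz1-201 were 70.0, 69.2 and 76.8 CPM in the standard libraries and 56.5 and 60.1 CPM in the AHARIBO libraries. Both AHARIBO values thus lay below all standard values. The log2 fold change was -0.30 ± 0.08 (SE), with an adjusted p of 0.023 in the edgeR quasi-likelihood test. Its fold was 0.812 (95% interval 0.726 to 0.908). Srm-201 was at 90.3, 88.9 and 92.0 CPM in standard and at 69.0 and 78.0 CPM in AHARIBO RIBO-seq, again without overlap. The log2 fold change of Srm was -0.30 ± 0.08 (SE), with an adjusted p of 0.021 in edgeR, and the fold was 0.813 (95% interval 0.728 to 0.907). Without AHARIBO replicate 1, or without standard replicate 1 or 3, neither call remained, with adjusted p-values of 0.312, 0.092 and 0.094 for Oaz1 and of 0.429, 0.118 and 0.054 for Srm in edgeR. With 1 AHARIBO library left, its spread was assumed to be that of the standard libraries. Neither DESeq2 (adjusted p of 0.115 for Oaz1 and 0.095 for Srm) nor edgeR with a block for the replicate number (0.189 and 0.129) made either call.

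So 2 of 8 members fell and 0 rose, where 2.53% of 12374 genes fell and 2.60% rose, and 5.13% were called in either direction. Over all 66972 transcripts tested the share called was 4.51%. Calls were more frequent among genes at similar levels: of 1282 genes with a mean of 50 to 200 CPM, where Oaz1 and Srm lie, 10.2% fell. The groups did not overlap for 5 of 8 members, of which 4 were lower and 1 higher in AHARIBO RIBO-seq, against 34.3% of all genes in either direction, 17.1% lower and 17.3% higher. The median log2 fold change was -0.02 over the members and -0.0026 over all genes.

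Odc1, the target of antizyme, was nearly level between the methods. Its values were 176, 179 and 176 CPM in standard RIBO-seq and 163 and 171 CPM in AHARIBO RIBO-seq. Both AHARIBO libraries were lower, but the fold of 0.945 (95% interval 0.852 to 1.05) did not pass the edgeR test (adjusted p = 0.610). Oaz2 was measured with 56 to 89 reads per library, at 8.40, 6.62 and 8.88 CPM in standard and 7.79 and 8.89 CPM in AHARIBO RIBO-seq. These values overlapped, and the interval of the fold ran from 0.854 to 1.30, so that a fall of the size seen in Oaz1 lay just outside it. That margin is narrow and rests on all libraries. With 1 library left out, the log2 fold change of Oaz2 ran from -0.051 to 0.17. Azin1 was at 48.6, 48.5 and 41.1 CPM against 49.5 and 48.7 CPM, with a fold of 1.06 (95% interval 0.943 to 1.19). The AHARIBO values of Azin1 lay above all standard values by little, and the test was not passed (edgeR adjusted p = 0.658).

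Amd1, which makes the aminopropyl donor, was at 38.3, 34.1 and 34.6 CPM in standard and 38.2 and 38.4 CPM in AHARIBO RIBO-seq, with a fold of 1.07 (95% interval 0.952 to 1.21). Sms, the spermine synthase gene, was at 20.6, 20.8 and 20.0 CPM against 20.2 and 21.3 CPM, with a fold of 1.01 (0.879 to 1.16). In both genes the groups overlapped. Sat1, whose product starts polyamine breakdown, was at 25.9, 25.3 and 25.9 CPM against 25.0 and 24.6 CPM. Its AHARIBO values were lower without overlap, and the fold was 0.967 (0.848 to 1.10), where keeping duplicates gave a log2 fold change of -0.30 (edgeR adjusted p = 0.090). None of these genes passed the edgeR test, with adjusted p-values of 0.581 for Amd1, 0.961 for Sms and 0.843 for Sat1.

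**Figure D2:**
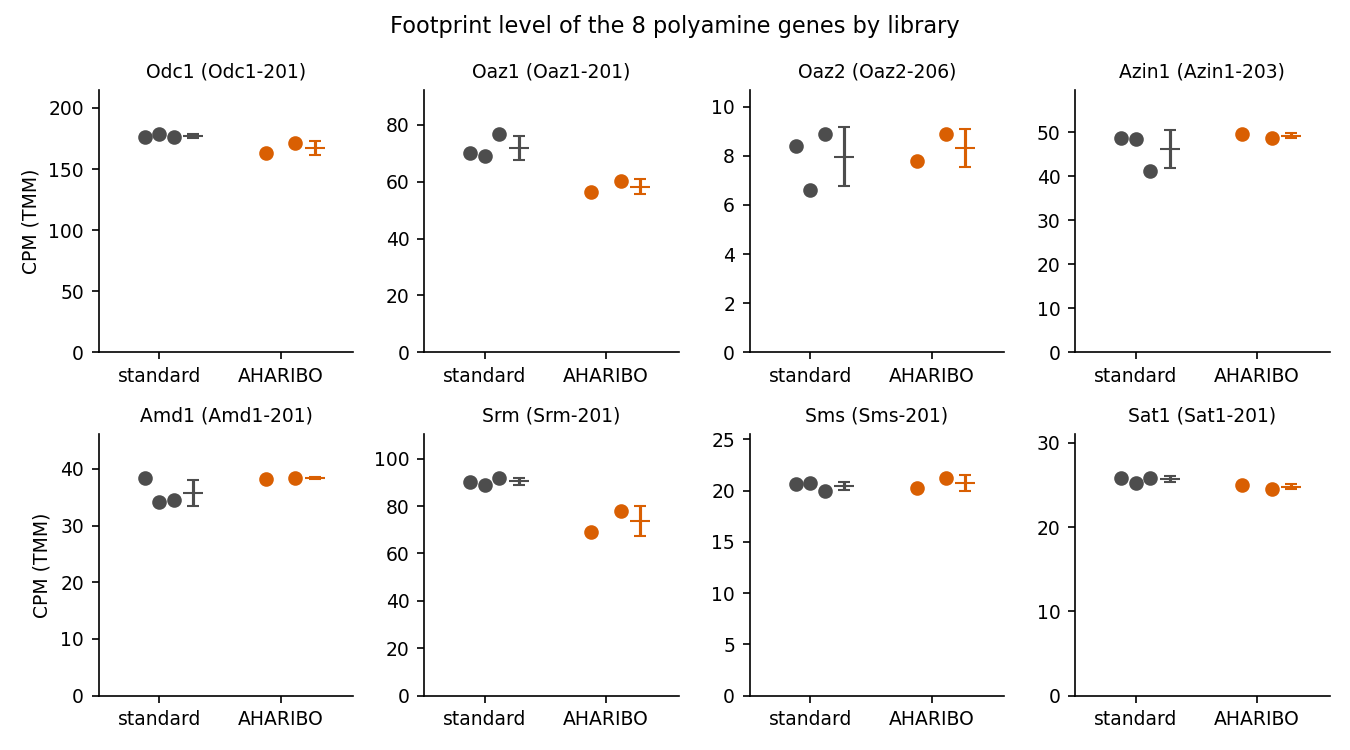
Footprint level (CPM with TMM factors, linear axes from 0) of the highest protein-coding transcript of each gene, 1 point per library, with the mean and SD beside the points. For Oaz1 and Srm both AHARIBO libraries (orange) lie clearly below the 3 standard libraries (grey), at 58.3 against 72.0 CPM and at 73.5 against 90.4 CPM on average, while the other genes differ by less.

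The transcripts of Oaz1 did not all fall alike. Of its 6 protein-coding transcripts, Oaz1-201, Oaz1-202, Oaz1-203 and Oaz1-207, which all hold most of the leader and the start codon, fell with log2 fold changes of -0.30 to -0.35 (adjusted p of 0.023, 0.008, 0.012 and 0.015 in edgeR). Oaz1-205, which begins anew before the second exon and keeps the shift site, was at -0.12 (adjusted p = 0.590). Oaz1-204, which covers only the 3′ part, was at 0.16 (adjusted p = 0.699). Since a read counts on each transcript that holds it, the reads of such a partial transcript, as a percent of those of Oaz1-201, show coarsely where footprints lie. Oaz1-205 held 26.2%, 27.0% and 27.1% in standard and 32.0% and 28.2% in AHARIBO RIBO-seq. Oaz1-204 held 6.40%, 6.22% and 7.23%, against 9.60% and 8.47%. Both shares were higher in both AHARIBO libraries than in any standard library. Oaz1-205 and Oaz1-204 have 58 and 26 windows of their own, and those of Oaz1-205 include the frameshift site, which Oaz1-201 skips. What remained after taking both away lay chiefly in the first exon, which ends 58 nt before the shift stop codon and holds 21.5% of the coding sequence. This remainder, a lower bound, was 67.4%, 66.8% and 65.7% of the reads in standard and 58.4% and 63.3% in AHARIBO RIBO-seq. Most reads of Oaz1-201 thus lay upstream of the frameshift site shown above, in every library, and the bound was lower in AHARIBO RIBO-seq without overlap.

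The leader of Azin1 was read in the same way. Azin1-208 is a noncoding transcript that shares nt 14 to 493 of the leader with Azin1-203, with the motif shown above in it, and no coding sequence. It held 51.8%, 53.8% and 58.3% as many reads as Azin1-203 in standard and 45.9% and 48.2% in AHARIBO RIBO-seq, so that its share was lower in AHARIBO RIBO-seq without overlap. Up to 170 of its own windows are not in Azin1-203, and reads there would be included. The density of Azin1 given above includes the leader reads. Azin1-205 lacks 344 windows of Azin1-203, of which 283 are in the leader, and has 236 of its own. The reads of Azin1-203 beyond those of Azin1-205 were 15.2% to 18.9% of the total, a value that includes windows outside the leader, and the methods overlapped. Azin1-206, a transcript with a retained intron, shares 416 windows of the coding sequence and has 783 of its own, so that its reads cannot be placed in the coding sequence. It held 11.1%, 10.0% and 8.88% in standard and 11.7% and 12.7% in AHARIBO RIBO-seq.

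Partial transcripts of Sat1 were compared in the same way. Sat1-203, which shares nt 123 to 484 (the end of the leader and the start of the coding sequence), held 75.8%, 70.3% and 69.3% as many reads as Sat1-201 in standard and 68.2% and 69.5% in AHARIBO RIBO-seq. Those values overlapped. Sat1-205, from nt 482 on, held 19.0%, 22.3% and 20.2% against 23.4% and 22.4%, higher in AHARIBO RIBO-seq by a narrow margin. Sat1-204, from nt 584 on, was also higher without overlap, while Sat1-202 and Sat1-206, which span most of the transcript, held 93.3% to 97.2% and overlapped. Sat1-203 and Sat1-205 have more windows of their own (437 and 768) than they share with Sat1-201 (307 and 478), and reads there are included. For Srm, the other gene that fell, Srm-203 begins at nt 279, after the leader and the start of the coding sequence. It held 62.3%, 60.6% and 65.2% in standard and 71.7% and 69.0% in AHARIBO RIBO-seq, without overlap, with 120 windows of its own included. Srm-202, which lies farther toward the 3′ end from nt 779 on, held a mean of 21.4% against 21.7%, and these values overlapped.

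**Figure D3:**
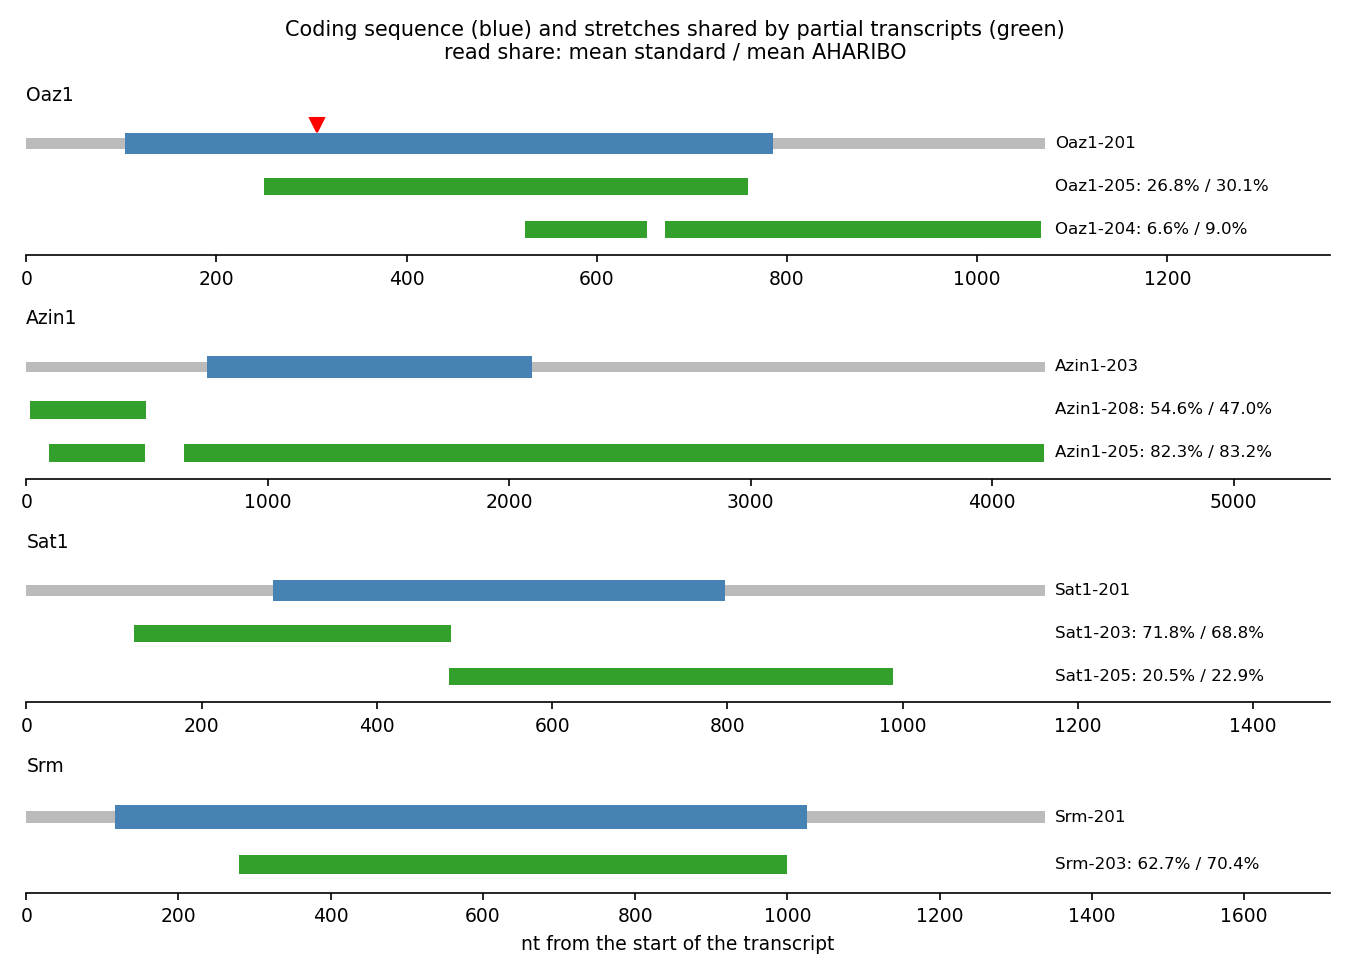
Maps in nt from the transcript start of the highest coding transcript of Oaz1, Azin1, Sat1 and Srm (grey, with the coding sequence in blue) and of the stretches that partial transcripts share with it (green). Percentages are reads on the partial transcript relative to the full one, as the mean of the standard and of the AHARIBO libraries. The red mark is the Oaz1 frameshift site. Stretches at the 3′ side hold a larger percentage in AHARIBO RIBO-seq (Oaz1-205 with 26.8% and 30.1%, Srm-203 with 62.7% and 70.4%) and the leader stretch Azin1-208 a smaller one (54.6% and 47.0%).

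Differences in Odc1 ran both ways. In this gene, Odc1-205, which starts at nt 648 within the coding sequence, held 51.1%, 55.0% and 51.2% in standard and 60.9% and 57.4% in AHARIBO RIBO-seq, and the 3′-sided Odc1-204 and Odc1-207 were also higher without overlap. Against this, the 3′-sided Odc1-208 was lower, with 80.2%, 78.9% and 79.6% against 78.2% and 77.9%, and the 5′-sided Odc1-203 was higher, with a mean of 19.2% against 20.5%. Windows of their own, where reads are included, number 532 in Odc1-205, 147 in Odc1-204, 109 in Odc1-207, 188 in Odc1-208 and 203 in Odc1-203. In Oaz2, Oaz2-204 (nt 44 to 551, leader and 5′ coding part) held 85.3%, 88.3% and 89.3% against 77.5% and 79.8%, while the 3′-sided Oaz2-202 held a mean of 20.0% against 25.8% and overlapped. Oaz2-204 has 192 windows of its own. It held fewer reads than Oaz2-206 by only 11, 7 and 6 in standard and 20 and 18 in AHARIBO RIBO-seq. Sms-205, a transcript with a retained intron that shares nt 995 to 1199, was the only 1 of 50 transcripts of the members that rose. Over all 66972 transcripts tested, 1520 rose. Sms-205 had 16, 15 and 8 reads in standard and 38 and 30 in AHARIBO RIBO-seq, a log2 fold change of 0.98 ± 0.28 (SE; edgeR adjusted p = 0.033). It held 8.70%, 7.98% and 6.35% as many reads as Sms-201 against 16.5% and 14.1%, but it has 445 windows that Sms-201 lacks and 176 that both share, so that these reads may lie outside Sms-201. Sms-204, which is neither 5′-sided nor 3′-sided, was lower without overlap, at a mean of 91.6% in standard and 85.4% in AHARIBO RIBO-seq. In Amd1 the uORF could not be read by this route, since Amd1-204 starts at nt 130, after it. Amd1-204 is 5′-sided and shares 199 windows of the leader and 295 of the coding sequence, with 172 of its own. It held 48.8%, 42.1% and 49.5% as many reads as Amd1-201 in standard and 43.2% and 46.0% in AHARIBO RIBO-seq, and these values overlapped. Reads of Amd1-201 beyond those of Amd-ps3, which holds 96.9% of its coding windows, numbered only 4, 6 and 2 in standard and 19 and 15 in AHARIBO RIBO-seq.

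Counted over all members, 39 other transcripts shared 50 or more windows of the leader and coding sequence of the gene's highest transcript and lacked 50 or more. A transcript was called 5′-sided or 3′-sided if the mean position of the shared windows lay at least 0.25 coding lengths before or after that of the windows it lacked. Of 19 that were 3′-sided, 10 had a higher and 1 a lower share in AHARIBO RIBO-seq without overlap, against 27.6% higher and 9.54% lower among 8439 such transcripts of other genes. The 10 include Azin1-206, Sms-205 and Sat1-205, which have more windows of their own (783, 445 and 768) than shared ones (416, 176 and 478). Their reads may lie outside the highest transcript. Windows of their own were not limited in other genes either. Of 8 that were 5′-sided, 3 had a lower and 1 a higher share, against 32.5% and 7.82% of 6973. The other genes had at least 100 reads in every library. With the same floor, which leaves out Oaz2, 10 of 18 3′-sided transcripts of the members were higher and 1 lower, and of 6 5′-sided ones 1 was lower and 1 higher. The transcripts of a gene overlap and are not independent, no test was made, and what moves with these shares across genes was not tested.

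**Figure D4:**
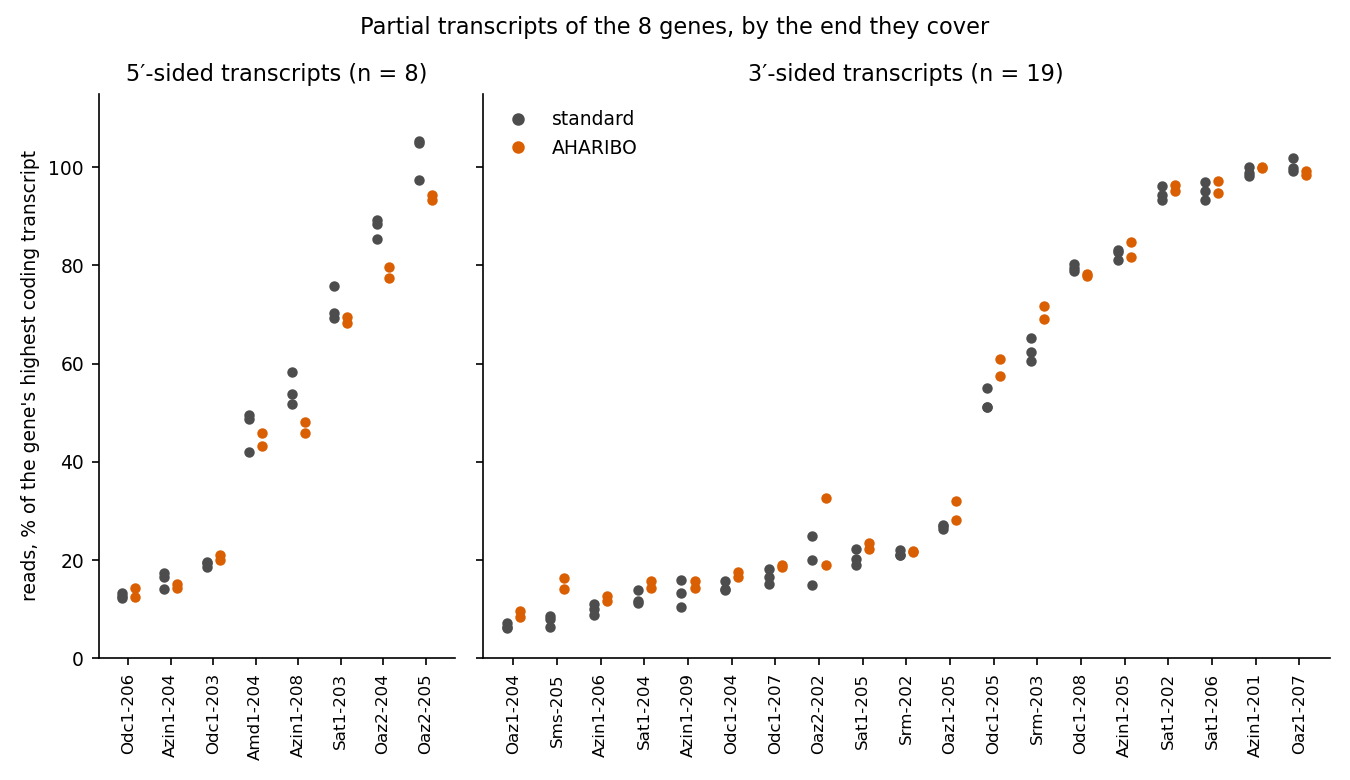
Reads on each partial transcript as a percentage of those on the gene's highest coding transcript, for the 8 5′-sided and 19 3′-sided transcripts, 1 point per library (grey standard, orange AHARIBO). Values can exceed 100 where the partial transcript has sequence of its own. Among 3′-sided transcripts with low shares the orange points mostly lie above the grey ones, and for Azin1-208, Oaz2-204 and Oaz2-205 at the 5′ side they lie below.

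Ratios of density within a library need no scaling between libraries. All reads on a transcript enter them, those in the leader of Azin1 and upstream of the Oaz1 frameshift site included. They are therefore not ratios of protein made. Oaz1 to Odc1 was 0.810, 0.790 and 0.889 in standard and 0.707 and 0.715 in AHARIBO RIBO-seq. Azin1 to Oaz1, the gene of the inhibitor against that of the antizyme it binds, was 0.350, 0.353 and 0.270 against 0.442 and 0.409. Sms to Srm was 0.188, 0.193 and 0.179 against 0.242 and 0.225. Each of these 3 ratios gave p = 0.1 in a two-sided exact permutation test over the libraries, the smallest that 10 splits allow (0.133 adjusted over 4 ratios). Amd1 to Odc1, the ratio of the pair of decarboxylase genes, was 0.300, 0.264 and 0.271 against 0.324 and 0.309, with an exact permutation p of 0.2 (0.2 adjusted). The groups did not overlap in this ratio either. The other 3 ratios each hold Oaz1 or Srm, which were lower by themselves, and are no separate result.

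The rest of the polyamine pathway differed little. Of 26 other genes, 5 did not reach the filter, and of the 21 tested 1 fell and 0 rose, against 5.13% of all genes called in either direction, so that this count is near the background. The one that fell was Mri1, which acts in the salvage of the methylthioadenosine that spermidine and spermine synthesis release. Mri1-203 was at 27.6, 25.6 and 27.6 CPM in standard and at 20.7 and 19.0 CPM in AHARIBO RIBO-seq, without overlap, with a log2 fold change of -0.43 ± 0.10 (SE; edgeR adjusted p = 0.006). The log2 fold change was -0.44 with DESeq2 (adjusted p = 0.094), -0.42 with summed transcripts (edgeR adjusted p = 0.121), -0.41 without standard replicate 1 (0.055) and -0.37 without AHARIBO replicate 2 (0.056), and the call was lost in each. Eif5a, whose product carries hypusine made from spermidine, was the most abundant of the list, at 196 ± 12.4 (SD, n = 3) and 171 ± 12.2 CPM (SD, n = 2), with a log2 fold change of -0.20 (edgeR adjusted p = 0.143). Slc3a2 and Slc7a1, transporter genes, were at 182 and 123 CPM in standard and 169 and 128 CPM in AHARIBO RIBO-seq. Mat2a, which makes S-adenosylmethionine, was at 127 and 129 CPM, and Dohh, which completes hypusine, at 41.3 and 37.8 CPM. Amd2 was at 35.7 and 38.0 CPM, values it shares with Amd1. The median log2 fold change of the 21 was -0.02 (range -0.43 to 0.42).

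The genes whose centred log2 CPM over the 5 libraries was closest to that of Odc1, among 6028 genes with a mean of at least 10 CPM, were Mrpl22, Phb and Senp3, with root mean square differences of 0.011, 0.011 and 0.012. For Oaz1 they were Tomm6, Srsf1 and Cyc1, at 0.019, 0.022 and 0.028. Since likeness was measured over the same libraries, their difference between the methods is fixed by the choice and is not a result.

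Removal of duplicates weighed on the members unequally. It took 45.5% to 50.2% of the reads of Oaz1, 36.2% to 46.9% of those of Odc1 and 6.67% to 14.8% of those of Oaz2, against 43.3% to 47.7% of all counts. Over all libraries together, the share removed was above that of 95.2% of genes for Oaz1, 94.0% for Odc1 and 53.7% for Oaz2. For Sat1 and Srm it was above that of 94.6% and 89.7%. From Sat1, removal took 50.0%, 46.0% and 48.6% in standard and 41.6% and 36.6% in AHARIBO RIBO-seq, a difference without overlap. Sms also differed without overlap, at 19.3%, 17.5% and 16.0% against 15.4% and 13.4%. With duplicates kept, Oaz1 remained lower (log2 fold change -0.32; edgeR adjusted p = 0.046) and Srm was at -0.26 (adjusted p = 0.103). Sat1 moved from -0.05 to -0.30 (edgeR adjusted p = 0.090), the size of the change in Oaz1 and Srm, without passing the test.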

How the data were processed

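Ribosome footprints of mESCs were measured in 3 standard and 2 AHARIBO libraries, assigned by the submitters' labels. The values the authors deposited are read counts for each transcript, with duplicates removed (used here) and with duplicates kept (an alternative), without normalization. Per the methods, reads were trimmed with Trimmomatic 0.36, rRNA and tRNA reads were removed, and the rest were aligned with STAR, at its defaults, to Gencode M17 (GRCm38.p6). Antisense reads were removed. How a read with several matches was counted is not given in the sources used here, and molecular identifiers are not mentioned. Duplicate removal may therefore have taken independent fragments, and depth covers counting error only. The number of per-sample columns left unused was 0. Gene names, coding sequences and lengths came from Gencode M21, in which 99.8% of transcripts were found.

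CPM and tests used edgeR 4.0.16 in R 4.3.3: TMM over all transcripts, then at least 1 CPM in 1 library, then the quasi-likelihood test with Benjamini-Hochberg adjustment at 0.05. Each standard error was computed as the fold change (log2) over the square root of F, and the 95% intervals assume a normal distribution. DESeq2 1.42.0 was an alternative, and both were tested on simulated data. Proteins were aligned with Biopython 1.88. Windows of 30 nt were compared on the same strand, and other genes were read for partial transcripts where the highest transcript had 100 reads in every library. Replicate numbers 1 and 2 occur in both methods. The study describes standard RIBO-seq as done on the AHARIBO input, so libraries of both methods may share lysates. Neither it nor the labels say which libraries do, and the main fit ignores any pairing. Members, gene lists and tests were chosen with earlier results of these data known, and partial transcripts were examined after the values were seen. Named were the 8 members, pathway genes past the threshold and the 6 most abundant others, genes sharing over 10% of windows, and the 3 genes closest to Odc1 and to Oaz1. Transcripts chosen after their values were seen are the partial ones.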

Additional observations from a re-analysis of the deposited data

How the results depend on the processing

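Of the 8 genes, Odc1, Amd1, Azin1 and Sat1 kept their direction and stayed uncalled under all 13 alternatives of the edgeR fit, although Sat1 moved from -0.05 to -0.30 (edgeR adjusted p = 0.090) with duplicates kept. Oaz1 and Srm kept their direction in all 13 and their call in 6 each. With DESeq2 their log2 fold changes were -0.31 and -0.31, and with the sum of protein-coding transcripts -0.30 and -0.29, without a call. Srm was at -0.26 with duplicates kept and Oaz1 at -0.27 (adjusted p = 0.051) with 1 transcript per gene, both uncalled. With the replicate block, Oaz1 was at -0.26 and Srm at -0.29, 0 members were lower, and 971 transcripts were higher and 821 lower. The labels' numbers do not establish pairing. Deviations of same-numbered libraries from their group means correlated at 0.035 and -0.094. With 2 AHARIBO libraries these deviations mirror each other, so that the correlations cannot decide whether libraries were paired. Leaving out 1 library, where a lone AHARIBO library is assumed to vary like the standard ones, gave -0.34 to -0.25 for Oaz1, -0.39 to -0.21 for Srm, and 0 to 2 lower members. The sign turned for Sms with duplicates kept (-0.058) and when a library was left out (range -0.017 to 0.054, below 0 without AHARIBO replicate 2), and for Oaz2 when a library was left out (-0.051 to 0.17, below 0 without standard replicate 2 and, at -0.013, without AHARIBO replicate 2); both were uncalled throughout.

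Lower members numbered 0 with DESeq2 and with summed transcripts, and 1 with duplicates kept and with 1 transcript per gene. Mri1 was not called with DESeq2 or summed transcripts (0 pathway genes), nor without standard replicate 1 or AHARIBO replicate 2 (0 to 1 over all libraries left out). Over all transcripts, 1520 were higher and 1501 lower, against 1978 and 1048 with library size alone, 129 and 138 with DESeq2, 574 and 343 with 1 transcript per gene, and 15 and 13 with summed transcripts. With duplicates kept 910 were lower. Leaving out 1 library gave 355 to 1857 higher and 155 to 1972 lower, with the fewest without AHARIBO replicate 1. The cause was not tested. All 4 density ratios kept their direction with duplicates kept, with summed transcripts and with each library left out (transcript length cannot change it). By transcript length Srm ranked 2 and Oaz1 ranked 3 in density. With summed transcripts, in which a read counts again for each transcript, the ranks were 1 for Oaz1, 2 for Odc1, 3 for Sat1, 4 for Srm, 5 for Azin1, 6 for Amd1, 7 for Oaz2 and 8 for Sms. In analyses added after the data were seen, 3′-sided transcripts with a higher share numbered 10 to 13 and 5′-sided ones with a lower share 3 to 5 with 1 library left out, with 5 without standard replicate 2, while those of other genes rose to 33.5% to 43.7% and 38.6% to 49.0%. With at least 100 reads in every library these counts were 10 and 1. Depth limits Oaz2 most, at 56 reads in the shallowest library.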
